A study of Mus musculus with 6 samples.

Results

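The Bcl2 family decides at the mitochondrion whether a cell lives or undergoes apoptosis, and 10 of its genes were followed here in stage 0 invariant natural killer T (iNKT) cells of 2 mouse genotypes. The genes were Bcl2, Bcl2l1, Mcl1, Bcl2l11, Bax, Bak1, Bbc3, Pmaip1, Bid and Bad, taken by symbol from the 48397 genes of the count table, and all 10 were among the 12312 genes that passed the filter on low counts. Stage 0 iNKT cells are the earliest iNKT precursors in the thymus, sorted as CD1d-PBS57 tetramer+ CD24+ CD69+ CD44- cells that lack CD8 and have little or no CD4. RNA came from wild-type BALB/c mice (3 libraries) and from SKG mice (3 libraries), which carry a hypomorphic point mutation of Zap70, a kinase of the T cell receptor, on the same BALB/c background. Every cell of an SKG mouse carries the mutation, so these libraries do not separate effects inside iNKT cells from those of their surroundings. The mice of both genotypes were 8 to 10 weeks old, and each library held about 1000 cells from the thymi of 3 mice, which makes each replicate a pooled sample.

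Pro-survival members of the family (Bcl2, Bcl-xL and Mcl-1) hold the effectors Bax and Bak in check. BH3-only members, such as Bim, Puma, Noxa, Bid and Bad, are induced or activated by stress or by T cell receptor signals and block the pro-survival proteins or engage the effectors, which then open the outer mitochondrial membrane and release cytochrome c. In the thymus Bim and Puma take part in the death of strongly self-reactive thymocytes, while Mcl-1 and Bcl-xL sustain immature thymocytes and Bcl2 is raised after positive selection.

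Reads counted on genes lay between 37176544 and 43115544 per library. Genes with at least 10 reads numbered 11415 to 14339 over the BALB/c and 10835 to 14791 over the SKG libraries, so libraries of the same genotype differed widely in the number of genes detected. The biological coefficient of variation was 91.8% over the genes tested. Zap70, whose transcript a point mutation need not remove, was at 448 ± 65.4 CPM in BALB/c and 356 ± 45.9 CPM in SKG (SD, n = 3), and therefore did not check the labels. Summed stage 0 iNKT markers (10 of 10 genes present) lay between 8120 and 9606 CPM in BALB/c and between 7787 and 8974 CPM in SKG. Summed double-positive thymocyte markers (7 genes) spanned 43.0 to 423 CPM in BALB/c and 71.9 to 172 CPM in SKG, with the highest value in BALB/c replicate 1. B cell (6 genes), myeloid (7 genes), erythroid (6 genes) and thymic epithelial (6 genes) markers summed to at most 94.9, 271, 69.7 and 86.9 CPM in any library, Alas2, Krt5 and Psmb11 had 0 reads in every library, and no list separated the genotypes by its sum. Single markers did, however. Of the stage 0 iNKT genes, the sort marker Cd69 (353 ± 39.9 CPM in BALB/c, 193 ± 50.4 CPM in SKG) and Egr2 (1351 ± 230 and 777 ± 248.7 CPM) were lower in SKG without overlap, and Slamf6 (2628 ± 223 and 3325 ± 338 CPM) was higher (SD, n = 3). The myeloid gene Fcer1g was lower without overlap (10.9 ± 1.45 and 2.80 ± 1.82 CPM), as was 1 erythroid gene, which was nearly absent outside BALB/c replicate 1. The part of these in the values of the Bcl2 family was not tested.

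Bbc3, which encodes the BH3-only protein Puma, had the lowest p of the 10 genes, with 37.7 ± 8.22 CPM in BALB/c and 12.9 ± 2.26 CPM in SKG (SD, n = 3), 2.92-fold lower in SKG. CPM are a gene's reads relative to library size after TMM normalization. Mcl1 was 1.35-fold higher and Bid 1.5-fold lower in SKG, and in these 3 genes every library of one genotype lay above every library of the other. By edgeR's quasi-likelihood F test none of the 10 genes was called (Benjamini-Hochberg adjusted FDR below 0.1 with a change of 1.5-fold or more), against 0% of all genes tested. Bbc3 and Mcl1 passed an unadjusted p of 0.05, which 5.45% of all genes tested did. DESeq2 called 1 of the 10, Bbc3, as lower in SKG at an FDR of 0.000157, while 1.35% of the 14342 genes to which it gave an adjusted p were called lower. By limma-voom 0 of the 10 were called, and 0 of all 12312 genes tested. The ranges were separate for 2 members that were lower in SKG, Bbc3 and Bid, against 7.12% of all genes tested, and for 1 that was higher, Mcl1, against 6.77%. Fold changes (log2, SKG over BALB/c) were negative for 7 members and positive for 3, while 49% of all genes tested were positive. The median was -0.56 over the 10 and -0.02 over all genes tested. In edgeR the signs of Bcl2l11, Pmaip1 and Bak1 turned in fits without 1 library. Fewer cells of a kind and less RNA per cell cannot be told apart in these bulk libraries. With 3 libraries against 3, an exact permutation test of 1 gene cannot give a p below 0.1.

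**Figure D1:**
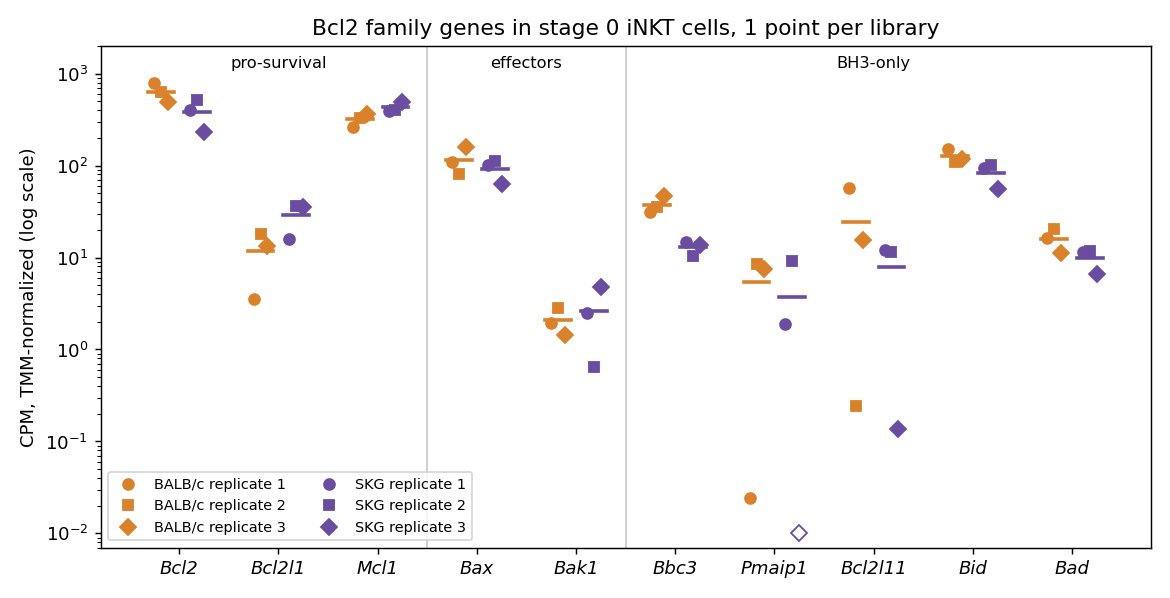
TMM-normalized CPM (log scale) of the 10 Bcl2 family genes, grouped by role, with 1 point per library, orange for BALB/c and purple for SKG, and horizontal bars at the means of 3 libraries. The open symbol at the lower edge is SKG replicate 3 with 0 reads of Pmaip1. The orange and purple points are apart for Bbc3, Bid and Mcl1, while Bcl2l11 and Pmaip1 spread over more than the distance between genotypes.

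Among the pro-survival genes, Bcl2 (chr1:106538178-106714274, minus strand, GRCm38) had a lower mean in SKG, and Mcl1 and Bcl2l1 had a higher one. Bcl2 was at 788, 625 and 488 CPM in BALB/c replicates 1 to 3 and at 403, 511 and 231 CPM in SKG replicates 1 to 3. The genotypes overlapped only because SKG replicate 2 lay just above BALB/c replicate 3. The log2 fold change was -0.73 with a standard error of 0.32 (edgeR FDR 0.947, unadjusted p = 0.0585), it was -0.46 without SKG replicate 3, and 2 of 3 SKG libraries lay below every BALB/c library.

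Mcl1 (chr3:95658788-95663176, plus strand) encodes a short-lived pro-survival protein whose level follows its synthesis closely. Its CPM were 265, 327 and 360 in BALB/c and 389, 406 and 492 in SKG. The lowest SKG library was above the highest BALB/c library. On the log2 scale the change was 0.44 with a standard error of 0.17 (edgeR FDR 0.894, unadjusted p = 0.0423), and it was between 0.33 and 0.54 with any 1 library left out. Mcl1 also had the smallest spread of the 10 genes within a genotype, an SD of 0.205 in log2 CPM against a median of 0.588 over all genes tested.

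Bcl2l1 (chr2:152780668-152831728, minus strand) encodes the pro-survival Bcl-xL and, by splicing, the pro-death Bcl-xS, which counts per gene do not separate. CPM of 3.56, 18.2 and 13.4 in BALB/c compared with 15.7, 36.2 and 35.2 in SKG. BALB/c replicate 1 was far below the other libraries, SKG replicates 2 and 3 were above all BALB/c libraries, and SKG replicate 1 lay between BALB/c replicates 2 and 3. The log2 fold change of 1.31 had a standard error of 0.76 (edgeR FDR 0.972) and was 0.88 without BALB/c replicate 1.

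Of the effectors, Bax (chr7:45461697-45466898, minus strand) was abundant, with overlapping values in the 2 genotypes. Its CPM were 108, 81.1 and 157 in BALB/c and 101, 113 and 63.0 in SKG. SKG replicate 3 was the lowest and BALB/c replicate 3 the highest library, and the other 4 lay within the overlap of the ranges. The log2 fold change of -0.32 was smaller than its standard error of 0.34 (edgeR FDR 0.991) and was -0.03 without BALB/c replicate 3.

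Bak1 (chr17:27019810-27029009, minus strand), the other effector, was barely detected. It reached 1.96, 2.86 and 1.44 CPM in BALB/c and 2.48, 0.643 and 4.76 CPM in SKG, from 25 to 172 reads per library. Both the lowest and the highest library were SKG libraries. No direction can be given, since the log2 fold change of 0.33 with a standard error of 1.04 became -0.41 without SKG replicate 3. In addition, 25.5% of its exon bases overlap Ggnbp1, and reads there cannot be assigned without strand.

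Among the BH3-only genes, Bbc3 (chr7:16308393-16318205, plus strand) combined separate ranges with the smallest spread of its class. Its reads numbered 1279, 1309 and 2118 for BALB/c but 588, 402 and 499 for SKG. These correspond to 31.0, 35.3 and 46.9 CPM against 14.6, 10.3 and 13.8 CPM. Every SKG library was at less than the lowest BALB/c library, and the gap between the genotypes was wider than the range within SKG. For Bbc3 the log2 fold change was -1.55 with a standard error of 0.46 and an unadjusted p of 0.0134, rank 200 of all genes tested, and the edgeR FDR was 0.823. DESeq2 estimated -1.52, or -1.46 after shrinkage with an FDR of 0.000186. Bbc3 was also called by DESeq2 in all 6 fits that left out 1 library, at FDRs from 0.000226 to 0.00645, an alternative added after the data were seen. Those fits share most of their libraries. They called 494 to 1144 of 22885 to 25511 genes with a p, against 370 of 24420 with all 6 libraries. The within-genotype SD of Bbc3 was 0.280 in log2 CPM, and none of its exon bases are shared with another annotated gene.

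The sequences upstream of Bbc3 and Mcl1 are shown because these genes, the lower and the higher, had the lowest unadjusted p of the family. RefSeq promoter windows (GRCm38.p6) were available for 9 of the 10 genes, in 15 windows, and the 250 bases before each start were searched on both strands for letters of factors that act in thymocytes. These were the E-box CACGTG, found in 6.02% of 32851 such windows of all genes, the GC box GGGCGG in 32.7%, the forkhead site TGTTTAC in 3.17%, the NFAT core GGAAA in 55.6% and the Egr site GCGTGGG in 4.3%. Capitals mark matches on either strand. The Bbc3 windows lie at chr7:16309333-16309582 (start A) and chr7:16310011-16310260 (start B), plus strand, in the intron of a transcript that begins upstream, and the Mcl1 window lies at chr3:95658471-95658720, plus strand, upstream of its first exon.
Bbc3 start A: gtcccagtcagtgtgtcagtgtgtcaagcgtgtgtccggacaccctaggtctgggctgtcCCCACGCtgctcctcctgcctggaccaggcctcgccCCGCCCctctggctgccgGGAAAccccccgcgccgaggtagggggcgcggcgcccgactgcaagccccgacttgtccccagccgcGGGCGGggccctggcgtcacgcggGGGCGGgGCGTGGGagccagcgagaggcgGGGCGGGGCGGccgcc
Bbc3 start B: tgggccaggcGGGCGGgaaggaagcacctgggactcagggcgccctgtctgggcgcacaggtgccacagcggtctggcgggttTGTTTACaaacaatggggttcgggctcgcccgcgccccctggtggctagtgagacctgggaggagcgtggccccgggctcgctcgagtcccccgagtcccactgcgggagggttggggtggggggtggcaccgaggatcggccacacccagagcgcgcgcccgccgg
Mcl1: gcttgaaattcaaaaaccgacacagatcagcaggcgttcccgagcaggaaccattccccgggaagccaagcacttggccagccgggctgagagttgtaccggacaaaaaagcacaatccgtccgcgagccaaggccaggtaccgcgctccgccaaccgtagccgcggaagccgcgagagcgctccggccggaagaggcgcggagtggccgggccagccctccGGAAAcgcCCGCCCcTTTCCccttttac

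The window at Bbc3 start A held 5 GC boxes, of which the pair nearest the start overlaps by 1 base, 2 Egr sites at 190 to 184 and 38 to 32 bases before the start, and 1 NFAT core, in a sequence of 76.4% GC. At start B there were 1 GC box and 1 forkhead site, 167 to 161 bases before the start. A further Bbc3 window, which overlaps that of start B, held 1 E-box and 7 GC boxes. Mcl1 had 1 GC box between 2 NFAT cores, all within 28 bases of the start, at 64.4% GC, and the median over all windows was 52.4% GC. Over the 15 windows, the forkhead letters occurred in 2 (Bbc3 and Bcl2l11), the Egr letters in 2 (Bbc3 and Bad) and the E-box in 2 (Bbc3 and Bax), whereas GC boxes occurred in 10 and NFAT cores in 11. A match of letters is a description of the sequence and does not show that a factor binds.

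Bid (chr6:120891930-120916853, minus strand) encodes the BH3-only protein that caspase-8 cleaves, linking death receptors to mitochondria. Its CPM were 150, 109 and 117 in BALB/c and 94.5, 101 and 55.1 in SKG. All SKG libraries lay below all BALB/c libraries, although SKG replicate 2 and BALB/c replicate 2 were close. Its log2 fold change was -0.59 with a standard error of 0.29 (edgeR FDR 0.952, DESeq2 FDR 0.598) and -0.35 without SKG replicate 3. Of its exon bases 17.7% overlap Bcl2l13, which had up to 6870 reads in a library.

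Bad (chr19:6941861-6951899, plus strand), whose product is kept inactive by growth-factor phosphorylation, was at 16.2, 20.2 and 11.3 CPM in BALB/c and at 11.4, 11.9 and 6.55 CPM in SKG. SKG replicates 1 and 2 lay just above BALB/c replicate 3, and SKG replicate 3 was the lowest library. Its log2 fold change of -0.68 was near its standard error of 0.66 (edgeR FDR 0.991) and was -0.44 without SKG replicate 3. Of the exon bases of Bad 20.5% overlap Gpr137, which had up to 863 reads in a library, against at most 750 for Bad. Smaller parts of the exon bases were shared for Bax (12.2%) and Bcl2 (6.09%).

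Bcl2l11 (chr2:128126038-128162547, plus strand), the gene of Bim, varied from library to library more than between genotypes. Its reads were 2336, 9 and 701 for BALB/c against 487, 446 and 5 for SKG, which gave 56.6, 0.243 and 15.5 CPM and 12.1, 11.5 and 0.138 CPM. BALB/c replicate 2 and SKG replicate 3 were nearly without reads, and the highest library was 410 times the lowest. The log2 fold change of -1.61 had a standard error of 1.88 (edgeR FDR 0.991) and was 0.015 without BALB/c replicate 1.

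Pmaip1, the gene of Noxa, was uneven in the same way, with 1, 317 and 343 reads in BALB/c and 77, 358 and 0 reads in SKG, which gave 0.0242, 8.55 and 7.59 CPM and 1.91, 9.21 and 0 CPM. The 0 reads of SKG replicate 3 allow up to 3 reads, or 0.0830 CPM, counting error alone. In each genotype 1 library was nearly without reads while another was at over 8 CPM. Its log2 fold change of -0.54 had a standard error of 2.29 (edgeR FDR 0.997) and became 0.063 without SKG replicate 3. Within a genotype, the SD of log2 CPM was 2.24 for Pmaip1 and 2.87 for Bcl2l11, at percentiles 94.4 and 99.4 of all genes tested. The 3 libraries in which a member had under 10 reads, BALB/c replicates 1 and 2 and SKG replicate 3, were also those with the fewest genes detected (11415, 11830 and 10835 with at least 10 reads). The part of this in the values was not tested.

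SKG replicate 3 held the lowest of the 6 values for 6 members (Bcl2, Bcl2l11, Bax, Pmaip1, Bid and Bad) and the highest for 2 (Mcl1 and Bak1). BALB/c replicate 1 held the lowest value for 2 members (Bcl2l1 and Mcl1) and the highest for 3 (Bcl2, Bcl2l11 and Bid), and it also had the highest double-positive, B cell and erythroid marker sums. SKG replicate 1 held no extreme value. Without SKG replicate 3, Bbc3 kept a log2 fold change of -1.59 and the Mcl1 value was 0.34.

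**Figure D2:**
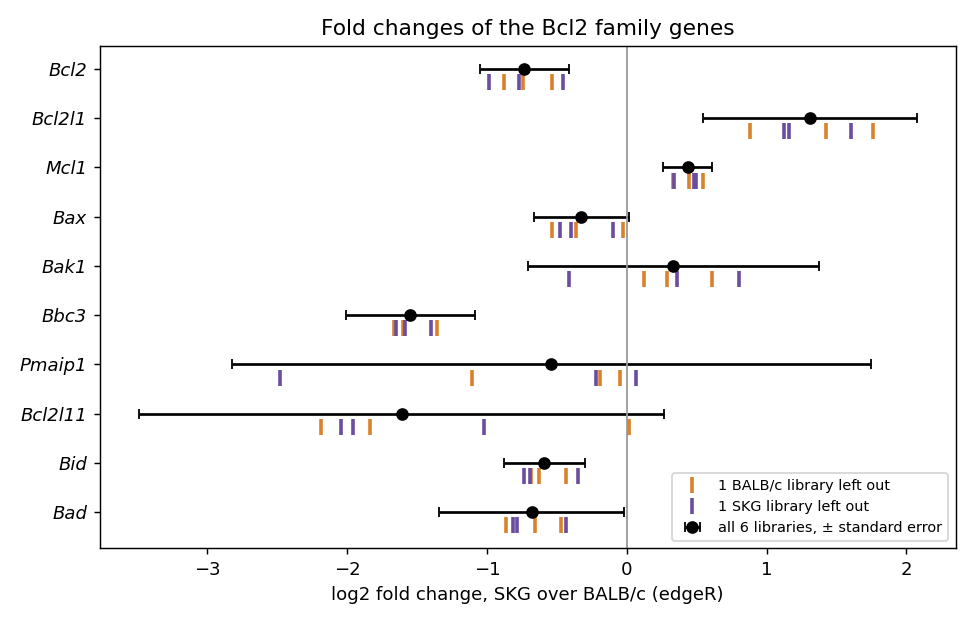
Log2 fold changes (SKG over BALB/c, edgeR) of the 10 genes, as black points with bars of ± 1 standard error. Ticks below each point give the value with 1 BALB/c (orange) or 1 SKG (purple) library left out. For Bbc3 all ticks lie between -1.67 and -1.36, while those of Bak1, Pmaip1 and Bcl2l11 reach both sides of 0.

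To compare genes with one another, CPM were divided by the length of their joined exons. By the median over 6 libraries, Mcl1 was the most abundant member with 110 CPM per kb, followed by Bax with 66.4, Bcl2 with 54.6, Bid with 29.6, Bbc3 with 10.7, Bad with 4.55, Bcl2l1 with 3.70, Pmaip1 with 1.74, Bcl2l11 with 1.47 and Bak1 with 0.924 CPM per kb. Each gene overlapped its neighbour in this order across the libraries. Within single libraries, Mcl1 exceeded Bax, Bcl2 exceeded Bid, Bid exceeded Bbc3, Bbc3 exceeded Bad and Bcl2l1 exceeded Pmaip1 in 6 of 6. Bax exceeded Bcl2 in 4 of 6, Bad exceeded Bcl2l1 and Bcl2l11 exceeded Bak1 in 4 of 6, and Pmaip1 exceeded Bcl2l11 in 3 of 6. The 3 most abundant transcripts were those of 2 pro-survival genes and 1 effector, and Bid was the most abundant BH3-only gene. By genotype means, Bcl2l1 moved from place 8 in BALB/c (2.56 ± 1.63 CPM per kb) to place 5 in SKG (6.33 ± 2.52 CPM per kb), and Bcl2l11 from place 7 (3.01 ± 3.63 CPM per kb) to place 10 (0.984 ± 0.838 CPM per kb). Place 7 of Bcl2l11 rested on BALB/c replicate 1, since BALB/c replicates 1 to 3 were at 7.05, 0.0302 and 1.93 CPM per kb. Bbc3 was at 17.8 ± 3.87 CPM per kb in BALB/c and 6.08 ± 1.06 CPM per kb in SKG (SD, n = 3), below Bcl2l1 in 2 of 3 SKG libraries.

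Ratios within a library do not depend on how libraries are scaled. The ratios that follow were chosen after the values were seen and are given without a test. Per kb, Mcl1 transcripts were 0.900, 1.4 and 1.98 times those of Bcl2 in BALB/c replicates 1 to 3 and 2.59, 2.13 and 5.70 times in SKG replicates 1 to 3. Every SKG ratio was above every BALB/c ratio, although SKG replicate 2 (2.13) and BALB/c replicate 3 (1.98) were close. This ratio and the shares that follow restate the Mcl1 and Bcl2 values given above and add no separate observation. Of the summed Bcl2, Mcl1 and Bcl2l1 levels per kb, Bcl2 made up 52.4, 40.7 and 33.0% in BALB/c and 27.3, 30.6 and 14.3% in SKG. Mcl1 made up 47.1, 57.0 and 65.2% in BALB/c and 70.6, 65.1 and 81.4% in SKG, where SKG replicate 2 fell just under BALB/c replicate 3. Bcl2l1 stayed a minor part, at most 4.33% in SKG and 2.36% in BALB/c.

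**Figure D3:**
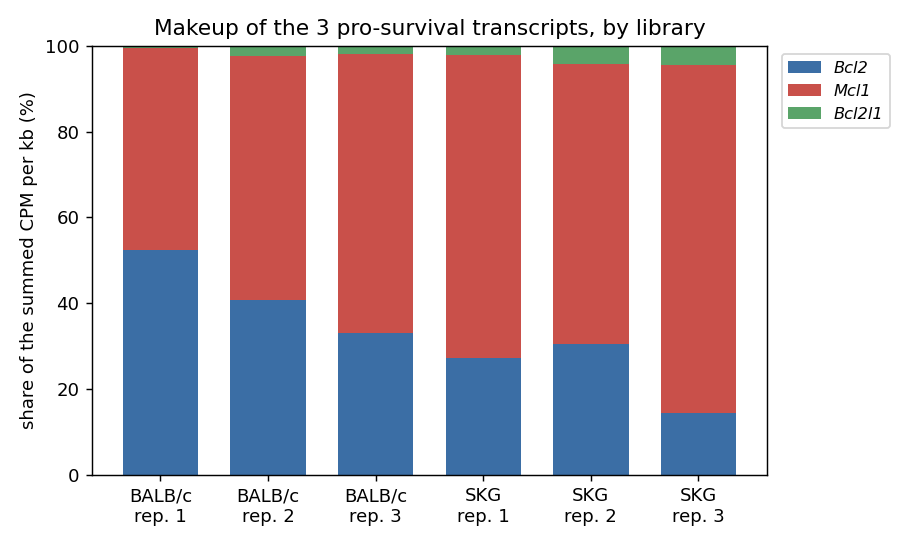
Shares (%) of Bcl2, Mcl1 and Bcl2l1 in their summed CPM per kb, 1 stacked bar per library, with Bcl2 in blue at the base, Mcl1 in red and Bcl2l1 in green at the top. The Bcl2 share is between 33.0 and 52.4% in the BALB/c libraries and between 14.3 and 30.6% in the SKG libraries.

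Set against the same pro-survival genes, Bbc3 had 11.7, 10.8 and 13 reads per 100 Mcl1 reads in the BALB/c libraries. The SKG libraries had 3.75, 2.55 and 2.80, so that the means were 11.8 ± 1.12 and 3.03 ± 0.632 (SD, n = 3). Set against Bcl2, whose mean was also lower in SKG, the genotypes were not separate, with 3.93, 5.65 and 9.60 Bbc3 reads per 100 Bcl2 reads in BALB/c against 3.62, 2.02 and 5.96 in SKG. Bid had 56.8, 33.4 and 32.5 reads per 100 Mcl1 reads in BALB/c against 24.3, 24.8 and 11.2 in SKG. The separation of both ratios to Mcl1 follows from that of the single genes, which lie apart in opposite directions, and adds no further observation.

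The rest of the apoptosis pathway was described with 7 further gene lists, and no gene of any list was called by edgeR. Pro-survival relatives (Bcl2l2, Bcl2l10 and the Bcl2a1 genes) were almost unexpressed, with 0 of 5 passing the filter and at most 82 reads in a library. Of 5 BH3-only relatives 3 were tested, and Bmf, Bnip3 and Bnip3l overlapped between genotypes. Bmf resembled Bcl2l11 in its unevenness, with 322, 0 and 251 reads in BALB/c and 7, 172 and 2 reads in SKG. Bcl2l12 and Bcl2l13, the 2 tested of 5 other Bcl2-like genes, had log2 fold changes of 0.02 and 0.19.

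All 12 genes of the apoptosome and caspase list were tested, with a median log2 fold change of -0.22, 4 of them positive. Cycs and Endog were lower in SKG without overlap of the libraries, as 7.12% of all genes tested were. Cycs, which encodes the cytochrome c that Bax and Bak release, was at 79.2 ± 18.5 CPM in BALB/c and 58.0 ± 2.49 CPM in SKG. Endog, a mitochondrial nuclease, was at 7.94 ± 2.61 and 2.79 ± 2.59 CPM (SD, n = 3 each). For Endog, BALB/c replicate 1 (5.55 CPM) and SKG replicate 2 (5.40 CPM) nearly met, and SKG replicate 3 had only 8 reads. Neither Cycs nor Endog passed an unadjusted p of 0.05, and Casp2, which overlapped, was at 186 ± 4.43 and 178 ± 56.8 CPM.

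The extrinsic death pathway, which starts from death receptors, had 12 of 14 genes tested and a median log2 fold change of 0.01. No gene of this list was without overlap, against 13.9% of all genes tested. Casp8, the protease that cleaves Bid, was at 104 ± 10.9 CPM in BALB/c and 114 ± 37.0 CPM in SKG, and Ripk3, Tradd and Birc2 had log2 fold changes of -0.13, -0.06 and 0.20.

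Of 15 regulators of Bcl2 family proteins 14 were tested (median log2 fold change -0.14), and 2 passed an unadjusted p of 0.05, as 5.45% of all genes tested did, each lower in SKG. Trp53, the gene of p53, which induces Bbc3, Pmaip1 and Bax, was at 734, 522 and 461 CPM in BALB/c and 378, 426 and 359 CPM in SKG. Of the 14 tested genes only Trp53 was without overlap, lower in SKG as 7.12% of all genes tested were. Its log2 fold change was -0.56 with a standard error of 0.20 (edgeR FDR 0.845). Huwe1, a ubiquitin ligase of Mcl-1 named after its values were seen, was at 175 ± 55.4 and 94.2 ± 22.5 CPM (edgeR FDR 0.834), with SKG replicate 3 just above BALB/c replicate 3. Ywhaz and Ywhab, 14-3-3 proteins that bind phosphorylated Bad, and Vdac2, which binds Bak, had log2 fold changes of 0.09, -0.05 and -0.20.

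Other p53 targets had fold changes of both signs. Of 12 genes, 9 were tested, with a median log2 fold change of 0.27, and 6 were positive. An unadjusted p of 0.05 was passed by 1 higher gene, Trp53inp1, and 1 lower gene, Zmat3. Trp53inp1, a stress-induced p53 cofactor, was at 166 ± 50.5 CPM in BALB/c and 322 ± 83.4 CPM in SKG, and Sesn1, a regulator of TORC1, at 42.2 ± 5.59 and 69.5 ± 29.2 CPM. Both were without overlap and higher in SKG, as 6.77% of all genes tested were, with edgeR FDRs of 0.830 for Trp53inp1 and 0.953 for Sesn1. For Sesn1, BALB/c replicate 1 (46.7 CPM) and SKG replicate 1 (47.2 CPM) nearly met, and SKG replicate 3 was at 103 CPM. Zmat3, an RNA-binding target of p53, was lower without overlap, as 7.12% of all genes tested were. Its levels were 9.87 ± 10.4 and 0.667 ± 0.647 CPM (edgeR FDR 0.834, DESeq2 FDR 0.026), on 186, 810 and 147 reads in BALB/c and 57, 11 and 11 reads in SKG. Ccng1, the most abundant of the list, was at 430 ± 128 and 518 ± 87.3 CPM and overlapped.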

How the data were processed

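The experiment comprised 6 RNA-Seq libraries. The authors aligned 50-nt single-end reads to GRCm38 with HISAT2 2.1.0 and counted those on exons with featureCounts (Subread 1.4.4), ignoring strand and requiring a minimum mapping quality of 10. The deposited values are raw counts per gene, and the authors applied no normalization to them. A further deposited table holds the authors' own DESeq2 1.14.1 comparison and was not used.

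Counts were filtered with filterByExpr, TMM-normalized and tested over 12312 genes with edgeR 4.0.16 (quasi-likelihood F test, Benjamini-Hochberg FDR under 0.1 and fold change of at least 1.5) in R 4.3.3. Depth was 37176544 to 43115544 reads. Standard errors were obtained by dividing the size of a log2 fold change by the square root of F. DESeq2 1.42.0 and limma 3.58.1 (voom), other normalization factors, no filter, at least 10 counts in every library, 2 replicate blocks and leaving out each library were alternatives. DESeq2 with each library left out was added after the data were seen. The fits were run on simulated counts with less spread than these libraries and larger changes than those of the 10 members. That run therefore does not show whether changes of the size seen here would be found. Within-genotype SDs used log2(CPM + 0.5). Positions and exon lengths came from GENCODE M21 (GRCm38), matched by symbol, and promoter windows from RefSeq (GRCm38.p6). Counting errors do not cover PCR copies, which counts cannot tell from separate molecules.

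The members and gene lists were chosen with earlier results of these data known. Text names all 10 members and up to 4 genes of each list, first those without overlap by lowest p, then by mean CPM, and some genes of the lists are not reported here. Libraries with the same replicate number in the titles had residual correlations of -0.092, -0.00962 and -0.145, and those with the same library number of -0.0384 and 0.00289, so they were not treated as pairs.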

Additional observations from a re-analysis of the deposited data

How the results depend on the processing

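Of 208 log2 fold changes of members under the alternatives, 190 kept their direction and side of the threshold, 10 turned direction and 8, all of Bbc3 in DESeq2, passed it. DESeq2 called 1 member (Bbc3) with and without shrinkage and in each of the 6 fits without 1 library, whereas edgeR called 0 members without any 1 library, and limma-voom, other normalization factors and other filters also called 0. Either replicate block called 0 as well. With the title number as replicate block Pmaip1 was 0.0022, with the library number as replicate block Bak1 was -0.43, and limma-voom gave Bak1 -0.021. Without 1 library, edgeR gave -0.41 to 0.80 for Bak1, -2.48 to 0.063 for Pmaip1 and -2.19 to 0.015 for Bcl2l11. In DESeq2, Bcl2l11 was 0.048 without BALB/c replicate 1, Pmaip1 was 0.0097 without BALB/c replicate 2 and 0.078 without SKG replicate 3, and Bak1 was -0.40 without SKG replicate 3. The causes were not tested. Members without overlap numbered 3 with all libraries (13.9% of all genes tested), 5 with library size alone (14% of all genes, with Bcl2 and Bad added, both lower in SKG) and 3 to 5 without 1 library (21.6 to 27.1% of all genes). They were 5 without BALB/c replicate 2 (Bcl2l11 lower and Bcl2l1 higher added) and 5 without BALB/c replicate 3 (Bcl2 and Bad added). The order of levels per kb kept 8 of 10 places with the longest transcript as length. Of all genes, DESeq2 called 370, or 231 with shrinkage, and 494 to 1144 without 1 library, while limma-voom called 0. For edgeR the total was 0, also with other normalization factors, either replicate block or 1 library left out. It was 2 without a filter and 1 with the strict filter, under which 8 of the 10 members were tested.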
